A study of Patiria miniata with 46 samples.

Results

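The 2 sides of an arm of a sea star, the bat star Patiria miniata, were compared by pairing cryosections at the same distance from an assumed mirror plane. The labels do not mark the middle of the arm, and in the results "the middle" means that assumed plane. The comparison used 14 of the 46 libraries of the series. Section k of the left-right series was paired with section 18 - k, for k = 2 to 8, so that section 9 was the mirror plane and 7 pairs were formed, from sections 2 and 16 at the outside to sections 8 and 10 at the inside. The comparison was repeated with section k paired with section 17 - k, which gave 8 pairs from all 16 sections and moved the plane to 8.5. Given the plane, the pairing used section numbers alone and no measured value, though sections were chosen with earlier results of these data known.

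The left-right series was cut from 1 arm of specimen 2, a young animal with no treatment or genetic change given in the labels, and each library was made from the polyadenylated RNA of 1 section. The 22 proximo-distal and 8 oral-aboral sections, also described here, came from specimen 1. Which end of the numbering is left is not stated in the labels, so the sides are named by section number, and "higher" and "lower" mean higher or lower in sections 10 to 16 than in sections 2 to 8. Pairs are positions in 1 arm and not animals, so p-values measure the spread of the side difference over positions in that arm and say nothing about other arms or animals.

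Sea stars develop from bilateral larvae into adults with a body built of repeated arms, and each arm has a mirror plane along its length, with the radial nerve cord and the water vascular canal in the middle and paired digestive and reproductive organs beside them. In many animals, left and right are set apart by the signalling ligand Nodal, its inhibitor Lefty and the homeobox gene Pitx, with BMP ligands and the BMP inhibitor Chordin acting beside them. In echinoderm larvae this system places the adult rudiment on 1 side of the body. Of a list of 12 genes of this pathway, the file names only BMP2-4 and Chordin, and the others were not analysed here.

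Total counts of the sections on the lower-numbered side ranged from 645959 to 1591759 with a median of 1146314, and those on the higher-numbered side from 250704 in section 14 to 1336245 with a median of 1136977. The log2 total count differed between mirrored sections by -0.214 ± 0.985 (SD, n = 7 pairs), was higher on the higher-numbered side in 3 of 7 pairs, and did not pass an exact sign-flip permutation test (two-sided p = 0.797, where the smallest p that 7 pairs allow is 0.0156). Levels in CPM are counts per 1000000 counts of a library. A locus with no count in section 14 could still lie at up to 12.0 CPM by counting error alone, and in the other paired sections this limit was 1.88 to 4.64 CPM. Levels of genes are given as normalised CPM, after scaling of the library by the trimmed mean of M-values (TMM). They are not divided by transcript length, so they compare sections and not genes. In sections, fewer cells of a type and less RNA per cell cannot be told apart.

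Mirrored sections were less alike than neighbouring sections of 1 side. The median absolute log2 difference over 15953 loci was 0.442 as the median of the 7 mirrored pairs and 0.391 as that of 12 pairs of adjacent sections, and the mean Pearson r of log2 CPM was 0.871 for mirrored and 0.906 for adjacent sections (across loci, which are not independent). The largest mirrored difference, 0.604, was that of sections 4 and 14, the pair with the shallowest library, and the smallest, 0.384, that of sections 8 and 10, and both lay within or near the range of adjacent sections, 0.323 to 0.564. The side differences of neighbouring pairs deviated from each locus's mean with a mean r of -0.00371 across loci, against -0.220 for pairs at least 2 positions apart. Neighbouring pairs thus resembled each other more than distant ones, while the side test treats the pairs as independent, and what this does to its p-values was not tested.

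Over all loci, 548 were higher and 809 were lower in sections 10 to 16 (edgeR quasi-likelihood test of side with the pair as a factor, Benjamini-Hochberg adjusted p under 0.05), which is 3.49% and 5.15% of the 15707 tested and 8.64% together. The median log2 side difference was 1.03 among the loci called higher and -1.60 among those called lower, while the median of all loci tested lay at -0.00. Scaled by total count alone, the split turned to 731 higher and 664 lower, and the median of all loci moved to 0.09. The side difference had the same sign in all 7 pairs for 332 of the higher and 173 of the lower loci, where 3.89% of all loci tested were higher in all 7 pairs and 2.3% lower. All 7 sections of the higher-numbered side lay above all 7 of the other side for 91 of the higher loci, and all 7 lay below for 13 of the lower loci, where 0.605% and 0.0891% of all loci tested had such separate sides. With the plane at 8.5, 390 loci were higher and 348 lower, 2.44% and 2.18% of 15953 tested, 4.63% together. Of the loci called around section 9, 60.0% of the higher and 37.0% of the lower were also called around 8.5, and 84.4% and 85.9% of those called around 8.5 were also called around section 9. The repeat used nearly the same libraries and is no independent evidence.

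The 2 directions differed in where the counts lay. Of the 548 higher loci, 331 (60.4%) had their highest level in sections 10 to 13, 167 (30.5%) in sections 14 to 16, 33 in section 9 and 17 in sections 1 and 2. Of the 809 lower loci, 766 (94.7%) were highest in sections 3 to 8 and 39 in sections 1 and 2. Among all loci tested, 17.0% were highest in sections 10 to 13, 19.6% in sections 14 to 16 and 37.0% in sections 3 to 8. Since side chose these loci, the positions describe them and test nothing.

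**Figure D1:**
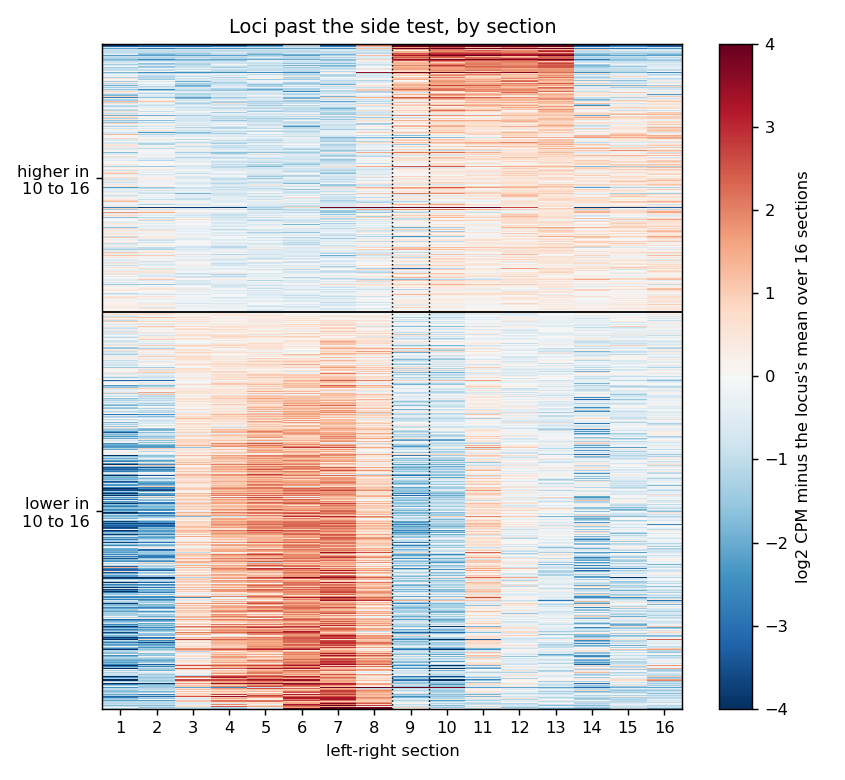
Heat map of the 548 loci called higher (above the line) and the 809 called lower (below it) in sections 10 to 16, 1 row per locus, sorted by the fitted side difference. Columns are left-right sections 1 to 16, dotted lines bound section 9, and colour is log2 CPM minus the locus's own mean over the 16 sections. The lower loci are highest in sections 3 to 8 and the loci with the largest rises in sections 9 to 13, with a sharp fall to section 14.

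Among the called loci, the median side difference was not the same at every distance from the middle. The median log2 difference of the higher loci was 0.78 in the innermost pair, 1.18, 1.29 and 1.34 in the next 3, and 0.65, 0.58 and 0.53 in the outer 3 pairs. That of the lower loci lay between -1.69 and -1.08 in the 6 inner pairs and was 0.56, the other way, in the outermost pair of sections 2 and 16. In that pair the lower loci thus stood higher in section 16 than in section 2. A change of the side difference with distance, tested as an interaction, passed for 41 of 15707 loci (0.261%, edgeR quasi-likelihood adjusted p under 0.05), of which 34 were also called for side and none was a gene with a symbol. For the 38 that rose outwards, the median log2 difference was -3.57 in the innermost pair and 2.45 in the outermost. The interaction chose these loci from the same pairs, so these medians describe them and test nothing.

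Of the 66 developmental genes that the file names, 53 passed the low-count filter, and 9 of these (17.0%) passed the side test, against 8.64% of all loci. Pax6, Dkk3, Wnt3 and Emx were higher in sections 10 to 16, and BMP2-4, FoxA, Nkx6, Hox8 and Hedgehog were lower. Around 8.5 the test called 6 of 54, higher for Pax6, Dkk3, Wnt3, Otx and Dmbx and lower for BMP2-4, so 4 genes were called in both pairings. The median log2 side difference of the 53 genes was 0.00. No gene was tested on a list of its own, and lists are given by counts. These counts stand beside 3.49% higher and 5.15% lower over all loci tested, and no list was tested against those shares. Each list holds few tested genes, from 1 to 17, so a single call is no result about the list.

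Among the secreted ligands, BMP2-4 was the clearest. BMP ligands pattern the body axis that separates oral from aboral in echinoderm larvae and dorsal from ventral in other animals. BMP2-4 stood at 43.5 to 103.0 normalised CPM, with a median of 70.5, in sections 2 to 8 and at 30.7 to 58.8, with a median of 39.2, in sections 10 to 16. It was lower in all 7 pairs, by -0.76 ± 0.17 on the log2 scale (SE, edgeR quasi-likelihood adjusted p = 0.00949), and the 2 ranges overlapped. On the lower-numbered side the level climbed with every step outwards, from 43.5 in section 8 through 70.5 in section 5 to 93.5 in section 3 and 103.0 in section 2, and it stood at 61.5 in section 1, which has no mirror around section 9. On the other side it had no such climb: the levels were 34.5, 47.9, 30.7, 39.2, 33.2, 58.8 and 40.3 from section 10 to section 16. From the innermost pair outwards the log2 difference was -0.32, -0.06, -0.98, -0.82, -1.22, -0.65 and -1.32, and its change with distance did not pass (adjusted p = 0.547). Around 8.5 the difference was -0.76 ± 0.16 (adjusted p = 0.0162), and with the plane at 9.5 the call ended (-0.54, adjusted p = 0.0718).

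No other member of the BMP group passed the test. Chordin, the secreted BMP inhibitor, differed by -0.55 ± 0.21 on the log2 scale (adjusted p = 0.140). Tolloid, the protease that cuts Chordin, had a difference of -0.29 ± 0.14 (adjusted p = 0.271), with the lower-numbered side above the other in all 7 pairs. Of 5 genes of the BMP list that were tested, which also holds the BMP-type ligand ADMP and the T-box factor Tbx2-3, 0 were higher, 1 was lower (BMP2-4) and 4 did not pass, with a median log2 difference of -0.37 and a range from -0.76 to 0.07, the highest being that of Tbx2-3.

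Wnt3, a ligand of the Wnt pathway, was higher on the other side. It stood at 23.2 to 68.7 normalised CPM, with a median of 42.4, in sections 2 to 8 and at 41.5 to 124.0, with a median of 84.0, in sections 10 to 16. The difference was 0.85 ± 0.22 on the log2 scale (adjusted p = 0.0226). It lay in sections 10 to 13 and in section 16, while sections 14 and 15, at 41.5 and 42.0, were no higher than their mirrors at 42.4 and 56.1, so 5 of 7 pairs were higher. The call was kept around 8.5 (0.84 ± 0.23, adjusted p = 0.0446). It was lost without the pair of sections 5 and 13, 6 and 12, 7 and 11 or 8 and 10 (adjusted p = 0.0979, 0.0933, 0.0513 and 0.0552), under limma-trend (adjusted p = 0.0659), with the plane at 8 (adjusted p = 0.0920), without the 2 innermost pairs (adjusted p = 0.129) and without the pair factor (adjusted p = 0.114).

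Of the 9 Wnt ligands tested, 1 was higher (Wnt3), 0 were lower and 8 did not pass, with a median log2 difference of 0.01. Wnt4, at 0.45 ± 0.38 (adjusted p = 0.597), was 1.98 with the plane at 8 (adjusted p = 0.0999), 1.06 at 8.5 (adjusted p = 0.241) and -0.37 at 9.5 (adjusted p = 0.624).

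Dkk3, a member of the Dickkopf family of secreted proteins, whose other members block Wnt receptors, was low on both sides and lower still in sections 2 to 8. Its level was 1.70 to 4.21 normalised CPM, with a median of 2.57, in sections 2 to 8 and 2.57 to 18.9, with a median of 8.29, in sections 10 to 16. These levels rest on 21 and 82 counts. Dkk3 was highest in section 10, next to the plane, at 18.9, and in sections 11 and 13, at 13.7 and 13.6, and the sides were level in the outermost pair, at 2.57 each. Sections 2, 3, 4, 6 and 7, at 1.70 to 2.96, lay under their counting limits of 2.35 to 4.64 CPM. Section 14, at 8.29, lay under its limit of 12.0 CPM. The difference was 1.86 ± 0.37 on the log2 scale (adjusted p = 0.00370) and 1.90 ± 0.37 around 8.5 (adjusted p = 0.00950). With limma-trend it was 1.22 (adjusted p = 0.0362), and without the 2 innermost pairs it was 1.36 and did not pass (adjusted p = 0.178). Dkk3 did not pass the stricter low-count filter (10 counts in at least 7 libraries) and has no test there.

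The other tested Wnt regulators did not pass. Sfrp1-5, a secreted Wnt-binding protein, ranged from 3.86 to 162.0 normalised CPM on the lower-numbered and from 4.15 to 74.9 on the higher-numbered side, a log2 difference of -0.76 ± 0.28 (adjusted p = 0.117). It moved with the plane, from 0.56 with the plane at 8 through -0.06 at 8.5 to -1.32 at 9.5, where it passed (adjusted p = 0.00235). It also passed without sections 2 and 16 (adjusted p = 0.0201), without sections 6 and 12 (adjusted p = 0.0416), when no low-count filter was applied (adjusted p = 0.0248) and when the log2 total was a covariate (adjusted p = 0.0447). Dkk1-2-4, of the Dickkopf group that blocks Wnt co-receptors, had a difference of -0.70 ± 0.28 (adjusted p = 0.153), opposite in sign to Dkk3. On the higher-numbered side it lay below its mirror in all 7 pairs, but only by -0.00416 in sections 7 and 11 and -0.0649 in sections 5 and 13. Section 14, at 4.15 normalised CPM, lay under its counting limit of 12.0 CPM. Of the list of Wnt receptors and secreted antagonists, which does not hold Dkk1-2-4, 5 genes were tested, 1 was higher (Dkk3), 0 were lower and 4 did not pass, with a median of -0.15.

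Hedgehog, a secreted ligand of midline and gut tissue in many animals, ranged from 1.29 to 47.8 normalised CPM, with a median of 9.78, in sections 2 to 8 and from 0.00 to 23.4, with a median of 2.55, in sections 10 to 16. It was lower in all 7 pairs, by -1.15 ± 0.32 on the log2 scale (adjusted p = 0.0288). In the outermost pair, sections 2 and 16 stood at 1.29 and 0.857, under their counting limits of 3.13 and 2.27 CPM. Section 14 stood at 0.00 with a limit of 12.0 CPM, against 9.78 in section 4. The sign of these pairs is not resolved. The level was highest in section 9, at 56.7, and lowest in the outer sections of both sides, and the difference depended on where the middle was put: around 8.5 it was -0.19 ± 0.32 (adjusted p = 0.831) and with the plane at 8 it was 0.60 (adjusted p = 0.330). The call was also lost without the pairs of sections 5 and 13, 7 and 11 or 8 and 10 (adjusted p = 0.0890, 0.114 and 0.124), with total count alone, DESeq2, limma-trend, no pair factor and without the 2 innermost pairs (adjusted p from 0.0555 to 0.585).

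Among the transcription factors, Pax6 had the smallest p. Pax6 is a paired-box gene used in eyes and the nervous system of many animals. It stood at 0.850 to 31.1 normalised CPM, with a median of 2.57, in sections 2 to 8 and at 3.15 to 73.6, with a median of 29.8, in sections 10 to 16. It was higher in all 7 pairs, by 1.83 ± 0.30 on the log2 scale (adjusted p = 0.00122). Levels were 2.45 and 4.15 in sections 4 and 14, and 0.850 and 3.15 in sections 3 and 15. These lay near or under the counting limits of those sections, 2.35 to 12.0 CPM, so the sign of these 2 pairs is not resolved. On the lower-numbered side Pax6 fell from 22.0 in section 7 to 1.48 in section 6, whereas on the other side it fell stepwise through 73.6, 61.6, 44.7 and 29.8 in sections 10 to 13 to 4.15 in section 14. Seen from section 9, the band of Pax6 thus reached further on the higher-numbered side. Its highest level was in section 10, with 62.3 and 61.6 in sections 9 and 11. Sections 8 and 12 stood at 31.1 and 44.7, and sections 7 and 13 at 22.0 and 29.8. Whether the band was wider on 1 side or centred off section 9 was not tested. Around 8.5 the difference was 2.31 ± 0.39 (adjusted p = 0.00319). The call was kept in all 7 fits that left out a pair and lost without the pair factor (1.74, adjusted p = 0.206). Pax6 has no test without the 2 innermost pairs or with the stricter filter, where it did not pass the low-count filter. With the plane at 8 the difference was 3.22 (adjusted p = 0.00117) and at 9.5 it was 1.01 (adjusted p = 0.0435).

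Emx, a homeobox gene of the forebrain in vertebrates and of the head in flies, was nearly flat at 29.8 to 43.2 normalised CPM, with a median of 38.3, in sections 2 to 8. In sections 10 to 16, from 37.8 to 82.9 with a median of 56.7, it had a broad peak away from the middle, at 70.7, 74.9 and 82.9 in sections 12, 13 and 14, with 37.8 in section 10 and 41.1 in section 16. It was higher in all 7 pairs, by 0.62 ± 0.17 on the log2 scale (adjusted p = 0.0260). The call lay near the threshold. It ended around 8.5 (0.59 ± 0.18, adjusted p = 0.0743), with the plane at 8 (adjusted p = 0.158), with DESeq2 (adjusted p = 0.102), without the pair factor (adjusted p = 0.0674), without the 2 innermost pairs (adjusted p = 0.0590) and without the pair of sections 3 and 15, 4 and 14, 5 and 13 or 6 and 12 (adjusted p = 0.0503, 0.0788, 0.0962 and 0.102), at log2 differences of 0.53 to 0.74.

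Otx, Dmbx and Tailless, regulators of anterior and neural territories, had counts only in sections 7 to 13. They were at 0 in sections 2 to 6 and in sections 14 to 16, so 3 pairs held no count on either side. In the pairs of sections 5 and 13 and of sections 6 and 12, all counts of Otx lay in sections 12 and 13, at 20.5 and 13.6 normalised CPM. Otx differed by 1.06 ± 0.47 (adjusted p = 0.229) around section 9 and by 2.13 ± 0.53 (adjusted p = 0.0386) around 8.5, and Dmbx by 1.20 ± 0.54 (adjusted p = 0.234) and 2.37 ± 0.55 (adjusted p = 0.0286). With the plane at 8 both passed, at 3.74 and 4.31 (adjusted p = 0.0061 and 0.00138), and with the plane at 9.5 both turned, to -0.20 and -0.15. When no low-count filter was applied both passed around section 9 (adjusted p = 0.0231 and 0.0143), and Dmbx passed with the log2 total as a covariate (adjusted p = 0.0457). Tailless, at 1.67 ± 0.65, did not pass in either pairing (adjusted p = 0.153 and 0.0758) but passed with the plane at 8 (adjusted p = 0.0219). Fitted values of these genes depend on the prior count where a side is empty.

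Of the 17 anterior and neural regulators tested, 2 were higher (Pax6 and Emx), 1 was lower (Hedgehog) and 14 did not pass, with a median log2 difference of 0.24. Otp, a homeobox gene of neurosecretory cells, was above its mirror in all 7 pairs, at 0.52 ± 0.24 (adjusted p = 0.247). BarH1, of the same list, and Lmx, which is on none, are homeobox genes of the nervous system and differed by 0.47 ± 0.27 and 0.29 ± 0.21 (adjusted p = 0.372 and 0.503). Pax2-5-8 differed by 0.21 ± 0.15 (adjusted p = 0.516) and by -0.03 ± 0.16 around 8.5, but with the plane at 9.5 it passed at 0.50 (adjusted p = 0.0410).

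FoxA, a forkhead factor of gut endoderm, had the smallest p of the genes that were lower. It ranged from 1.29 to 123.0 normalised CPM, with a median of 41.5, in sections 2 to 8 and from 4.29 to 47.9, with a median of 17.0, in sections 10 to 16. It was lower in 6 of 7 pairs, by -1.21 ± 0.21 on the log2 scale (adjusted p = 0.00186). In sections 7 and 8 FoxA stood at 123.0 and 116.0, against 47.9 and 45.6 in their mirrors, sections 11 and 10, and section 9 lay between, at 88.5. The outermost pair went the other way, at 1.29 in section 2 and 4.29 in section 16. The call was kept in all 7 fits that left out a pair. It ended around 8.5 (-0.47 ± 0.28, adjusted p = 0.408) and with the plane at 8 (0.07, adjusted p = 0.930), with limma-trend (adjusted p = 0.0647), without the 2 innermost pairs (adjusted p = 0.0970) and without the pair factor (adjusted p = 0.383).

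Nkx6 and Hox8 were also lower and, like FoxA, highest in section 7. Nkx6, an NK-class homeobox gene of nerve cord and gut in other animals, ranged from 3.86 to 54.3 normalised CPM, with a median of 14.7, on the lower-numbered side and from 0.00 to 33.5, with a median of 5.25, on the other. Hox8, of the central Hox genes that pattern the body axis, ranged from 0.00 to 85.6 with a median of 26.3 and from 3.43 to 50.9 with a median of 12.4. Both had a second, smaller peak in its mirror, section 11, with lower levels in sections 9 and 10 between. The log2 difference was -1.03 ± 0.27 for Nkx6 (adjusted p = 0.0218) and -0.90 ± 0.25 for Hox8 (adjusted p = 0.0280), each lower in 6 of 7 pairs. The largest pair difference of Nkx6, -3.03, was that of sections 4 and 14, at 13.0 and 0.00. Section 14 has a counting limit of 12.0 CPM, so the size of that pair difference is not resolved. Nkx6 was called in 6 and Hox8 in 6 of the 13 alternatives other than leaving out a pair, and Nkx6 in 3 and Hox8 in 2 of the 7 fits without a pair. Those fits gave adjusted p of up to 0.0922 for Nkx6 and 0.107 for Hox8, both without sections 8 and 10. Leaving out sections 5 and 13, 6 and 12, or 7 and 11 also ended both calls, and leaving out sections 3 and 15 that of Hox8. Around 8.5 the differences were -0.90 ± 0.30 (adjusted p = 0.0987) and -0.43 ± 0.33 (adjusted p = 0.553), and with the plane at 8 Hox8 turned to 0.08.

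Of the 9 Hox genes tested, 0 were higher, 1 was lower (Hox8) and 8 did not pass, with a median log2 difference of -0.29 and a range from -0.93 to 0.08. Hox3 had the largest difference, -0.93 ± 0.33 (adjusted p = 0.105), and Hox7 stood at -0.74 ± 0.33 (adjusted p = 0.222). Hox3 passed when no low-count filter was applied (adjusted p = 0.0281) and without sections 8 and 10 (adjusted p = 0.0312), and Hox7 without sections 2 and 16 (adjusted p = 0.0476). Of the 3 genes tested among NK homeobox genes and Msx, Nkx6 was lower and Nkx2.1 (-0.47 ± 0.20, adjusted p = 0.187) and Msx did not pass. Nkx2.2, an NK-class homeobox gene, did not pass the low-count filter and has no test. Chosen for mention after its values were seen, it had 60 and 79 counts in sections 7 and 8, 22 in section 9 and 9 and 1 in sections 10 and 11, so that 145 counts lay on the lower-numbered side and 18 on the other.

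The 29 tested genes outside the rule for named genes had log2 differences from -0.69 to 0.40 and adjusted p of at least 0.291. The 13 that did not pass the low-count filter were, beside Nkx2.2, Dlx, FezF, FoxQ2, Fzd4, Hox2, Hox11-13a, Hox11-13c, Hox11-13e, Lhx2-9, Rx, Sfrp3-4 and Wnt2.

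**Figure D2:**
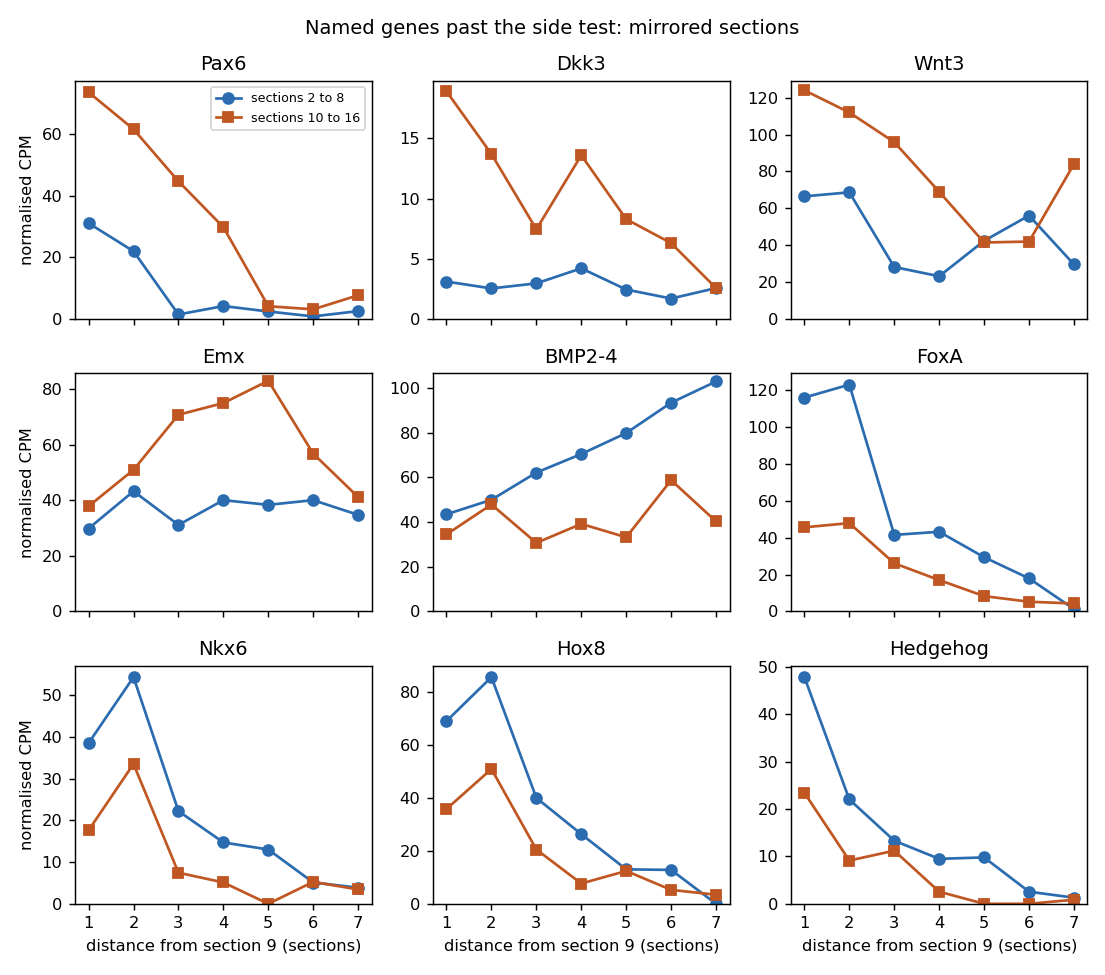
Normalised CPM of the 9 named genes that passed the side test, against the distance from section 9 in sections. Circles are sections 8 to 2 and squares their mirrors, sections 10 to 16, 1 library per point. Pax6 is above its mirror at every distance, though near or under the counting limit in sections 3, 4, 14 and 15. BMP2-4 is below its mirror at every distance in sections 10 to 16, and FoxA, Nkx6, Hox8 and Hedgehog differ most, in CPM, near the middle.

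**Figure D3:**
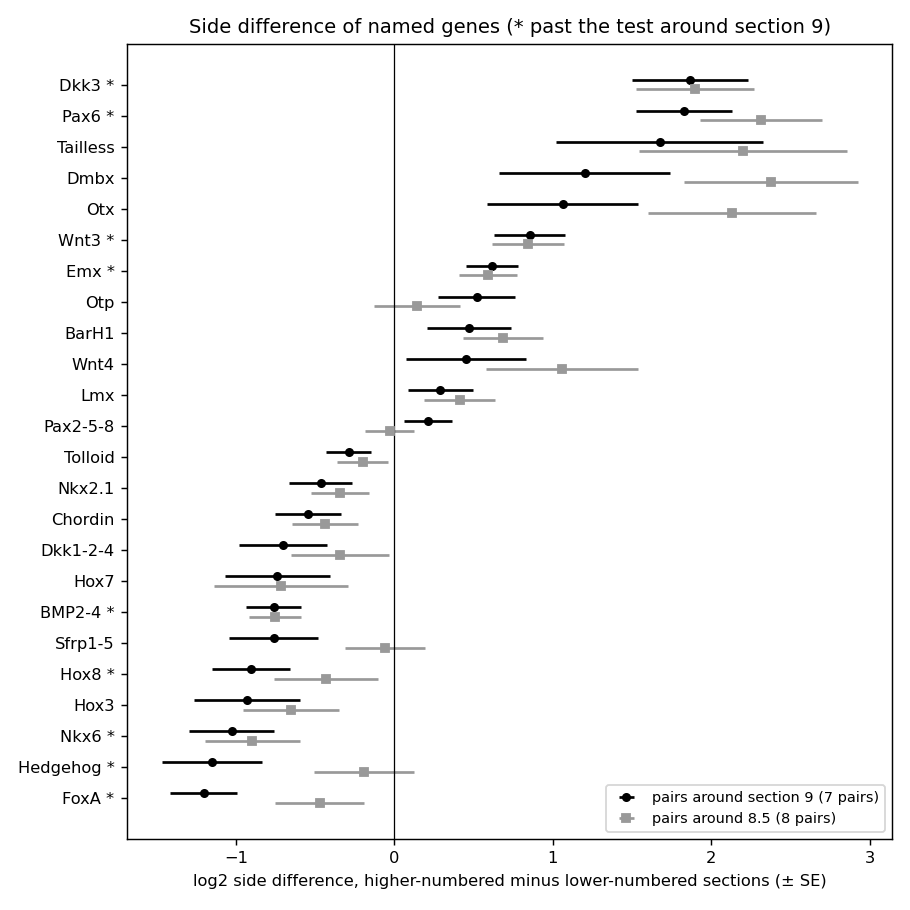
Fitted log2 side difference (higher-numbered minus lower-numbered sections, ± SE) of the 24 named genes that the rule selects, with the plane at section 9 (circles, 7 pairs) and at 8.5 (squares, 8 pairs). Dkk3, Wnt3, Emx and BMP2-4 hardly move between the planes, while FoxA, Hedgehog, Hox8 and Sfrp1-5 move towards 0 and Otx and Dmbx away from it.

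The likeness of mirrored sections was also measured for other planes. The mean Pearson r of log2 CPM between mirrored sections was 0.833 with the plane at 8, 0.859 at 8.5, 0.871 at 9, 0.877 at 9.5 and 0.852 at 10, over 6 to 8 pairs. The median absolute log2 difference was smallest at 9.5, 0.420, against 0.442 at 9. The planes at 9 and 9.5 thus differed in mean r by less than the range over pairs within either, 0.824 to 0.915 at 9 and 0.795 to 0.958 at 9.5. The planes were not measured on like pairs. Those at 8.5 and 9.5 include a pair of directly adjacent sections, and the sections used differ between planes. The number of loci called fell from 548 higher and 809 lower at section 9 to 466 and 731 at 9.5, 489 and 403 at 8 and 198 and 111 at 10. No locus called around section 9 was called with the opposite sign around 8, 8.5 or 9.5.

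**Figure D4:**
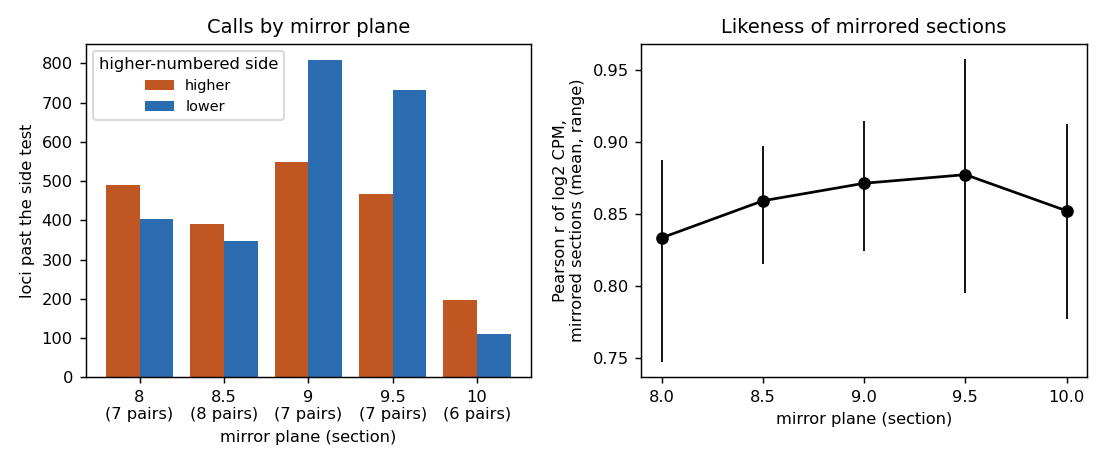
Left, loci called higher or lower on the higher-numbered side with the mirror plane at 8, 8.5, 9, 9.5 and 10. Right, the mean Pearson r of log2 CPM between mirrored sections for each plane, with the lowest and highest pair as a line. The calls are most numerous at section 9, and r is highest at 9.5 with ranges that overlap between planes.

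Of the 15707 loci tested, only 53 carried a symbol, and the smallest p-values of the side test belonged to loci without one. The file and the reference table used here pair their identifiers with no gene name, so their function was not analysed here. Of these loci, 198 were called in both pairings and higher in all 7 pairs, and 77 were called in both and lower in all 7. Over all loci, 329 were called higher and 299 lower in both pairings. Called or not, 3.89% of all loci tested were higher in all 7 pairs and 2.3% lower. The 2 with the smallest p in each direction were taken as examples. V4_HAP1_PB.2121 stood at 159.0 to 340.0 normalised CPM, with a median of 187.0, in sections 2 to 8 and at 506.0 to 766.0, with a median of 638.0, in sections 10 to 16. The 2 sides did not overlap. The log2 difference was 1.47 ± 0.17 (adjusted p = 7.64e-05). V4_HAP1_PB.15111 ranged from 60.2 to 109.0 on the lower-numbered side and from 165.0 to 330.0 on the other, also without overlap (1.46 ± 0.17, adjusted p = 0.000112). Both had counts in all 16 sections and were lowest in section 7. V4_HAP1_PB.2121 stood at 452.0 in section 1, which has no mirror around section 9, and at 370.0 in section 9, and it was highest in section 16. V4_HAP1_PB.15111 was highest in section 13 and stood at 174.0 and 165.0 in sections 14 and 15.

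The 2 lower examples had their high levels in sections 3 to 8 and lower levels, not absence, on the other side. V4_HAP1_PB.18949 had levels of 54.4, 147.0, 59.0, 84.5, 76.3 and 23.0 normalised CPM in sections 3 to 8 and of at most 18.6 in sections 9 to 16, and only 3.86 in section 2. V4_HAP1_PB.10113 was highest in section 7, at 101.0. It had a smaller second rise in the mirror of that section, section 11, at 19.0, against 7.48 and 7.16 in sections 9 and 10. The log2 differences were -2.57 ± 0.31 and -2.11 ± 0.26 (adjusted p = 0.000129 and 0.000148), and around 8.5 all 4 loci were called too (adjusted p from 0.00177 to 0.0148).

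The largest differences belonged to loci nearly confined to 1 side. Past 3 on the log2 scale there were 50 higher and 31 lower loci. All 50 of the higher ones had their highest level in sections 9 to 13. Together they held 1.77% to 2.69% of all counts in sections 9 to 13, 0.176% in section 8 and at most 0.0153% in sections 1 to 7, and in section 14 they fell to 4 counts of 250704, or 0.0016%. Sections 15 and 16 held 0.00327% and 0.00386%. Their band ran from section 9, with a trace in section 8, to section 13 and included the plane itself. Side chose these loci, so the lack of a mirrored band follows from that choice and tests nothing. The low-count filter can be passed through 4 libraries of 1 side. The largest of the 50 loci held 29.8% of their counts.

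All 31 of the lower loci were highest in sections 3 to 8, where they held between 0.299% and 1.35% of all counts, against 0.0188% in section 2, 0.0151% in section 10 and 0.183% in section 16. A single locus held 69.4% of these counts. The other 30 held 0.0702% to 0.517% of the counts in sections 3 to 8 and at most 0.0205% in sections 9 to 16. Side chose these loci too, so their shares describe them and test nothing. Section 8 held counts of both groups.

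**Figure D5:**
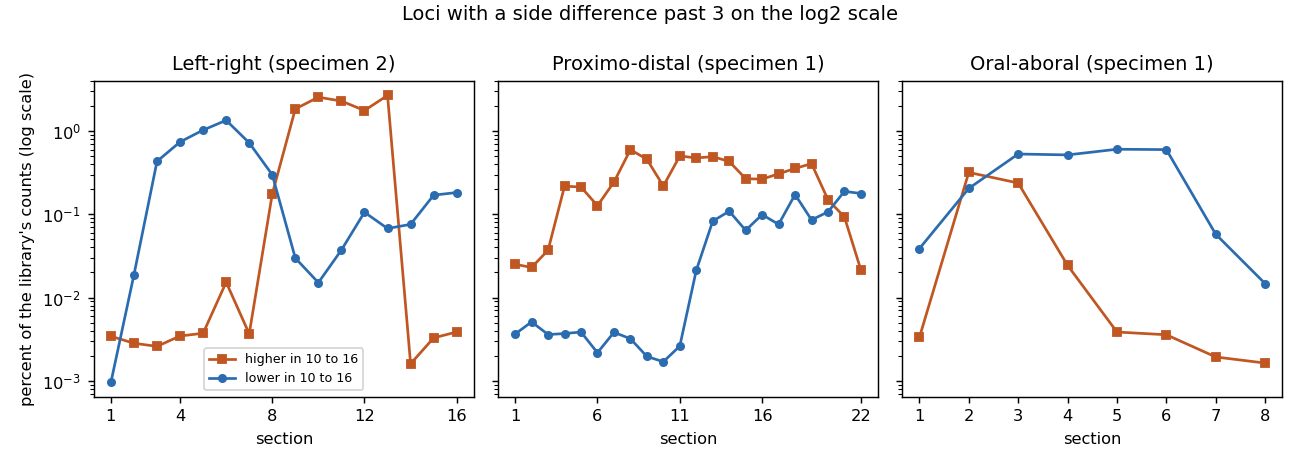
Share of each library's counts (percent, log scale) held by the 50 loci more than 3 higher and the 31 loci more than 3 lower on the log2 scale in left-right sections 10 to 16, in the left-right series of specimen 2 (left) and the proximo-distal (middle) and oral-aboral (right) series of specimen 1. The first group fills left-right sections 9 to 13, proximo-distal sections 4 to 21 and oral-aboral sections 2 and 3; the second fills left-right sections 3 to 8, oral-aboral sections 3 to 6 and proximo-distal sections from 12 on.

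Specimen 1 gave readouts that the side comparison did not use. In its oral-aboral series, 45 of the 50 higher loci had at least 15 counts, and 44 of these were highest in section 2 or 3, where 16.1% of all loci tested with that many counts had their highest level. Their share of counts was 0.319% in section 2, 0.238% in section 3 and at most 0.0244% in the other 6 sections. Of the 31 lower loci, 30 were highest in oral-aboral sections 3 to 6, where 44.6% of all loci were highest, and their share was 0.518% to 0.606% in those sections and 0.0147% in section 8. The 2 groups thus overlapped in oral-aboral sections 2 and 3.

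Along the proximo-distal series the lower group was nearly absent up to section 11, with at most 16 counts per section, and present from section 12 on, with 63 counts in section 12 and 1266 in section 21. The 26 lower loci with at least 15 counts all had their highest level in sections 12 to 22, against 52.3% of all loci with that many counts. The higher group lay in sections 4 to 21, at 0.0927% to 0.599%, with at most 0.0371% in sections 1 to 3 and 0.0214% in section 22.

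Over all 11067 loci tested for a proximo-distal trend, 20.3% rose and 19.1% fell towards section 22. Of the 809 lower loci, 522 could be tested for a proximo-distal trend in specimen 1, and 416 (79.7%) rose towards section 22 while 15 fell (edgeR quasi-likelihood adjusted p under 0.05). Of the 548 higher loci, 380 could be tested, and 187 (49.2%) fell while 22 rose. Of the 10414 loci tested for both, 20.0% rose and 19.1% fell. The median log2 trend over the whole series was 4.94 for the lower loci, -1.12 for the higher loci and 0.01 for all. Read the other way, 416 of the 2087 loci that rose along the proximo-distal axis (19.9%) were lower in sections 10 to 16 and 22 were higher, while of the 1992 that fell 187 (9.39%) were higher and 15 lower. Across the 10414 loci the side difference and the proximo-distal trend had a Spearman rho of -0.294, and across 15380 loci the side difference and the oral-aboral trend had a rho of 0.06 (loci are not independent, and no p is given). Scaled by total count alone, the proximo-distal series gave 385 rising among the lower loci and 260 falling among the higher, while 9.15% of all loci rose and 34.8% fell.

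Of the named genes called for side, FoxA (8.13 on the log2 scale), Hedgehog (2.90) and Nkx6 (2.36), all lower, rose along the proximo-distal axis of specimen 1 (adjusted p = 1.97e-09, 0.00322 and 0.000998), and Hox8, also lower, did not pass (1.79, adjusted p = 0.0622). Pax6 (-2.93) and Wnt3 (-2.66), both higher, fell (adjusted p = 0.00126 and 0.00032), and Emx, higher too, did not pass (0.16, adjusted p = 0.741). BMP2-4 went against this order: it was lower in sections 10 to 16 and fell along the proximo-distal axis (-1.86, adjusted p = 3.93e-05). Dkk3 was too sparse to be tested there. In the oral-aboral series the linear trend from section 1 to section 8 passed for Emx and Pax6, which fell (-3.89 and -6.33, adjusted p = 0.0178 and 0.0452), and for BMP2-4, which rose (1.74, adjusted p = 0.0468), where 0.688% of all loci rose and 0.0658% fell.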

How the data were processed

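The authors deposited raw counts, as whole numbers, for each transcript model in each library. The labels' protocols name polyadenylated RNA and PacBio Iso-Seq library kits. For aligner, counter, genome build and read filters, the answer is not given in the sources used here. Of 25794 rows, 1925 pairs sharing a locus were summed, leaving 23869 loci, of which 66 carry a symbol. A row named as overlapping Wnt7 was kept apart and not named. The RefSeq table of Pmin_3.0 matched no identifier.

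Counts were fitted with edgeR 4.0.16 in R 4.3.3 (TMM, glmQLFit, glmQLFTest, side plus pair). Loci needed the CPM of 5 counts in the median library in at least 4 libraries and 15 counts in all. The fit was tested on simulated counts. Log2 CPM used a prior count of 2. Trends of specimen 1 used position scaled from first to last section. The pairs are mirrored positions given by section number. The same section numbers in the 3 series mark no shared sample. No libraries agreed within sampling noise (smallest chi-square per degree of freedom 2.02).

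Alternatives were RLE and total-count scaling, other filters, DESeq2 1.42.0, limma-trend (limma 3.58.1), no pair factor, other planes, log2 total count as a covariate, unsummed models and leaving out pairs. The rule for named genes took every one past the threshold in either pairing and the 12 with the smallest p in each direction. Sections, genes and lists were chosen with earlier results of these data known, and other scalings of the proximo-distal series were added after the data were seen. Reads carry no molecular identifiers, so floors cover counting error only.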

Additional observations from a re-analysis of the deposited data

Results flagged for a closer look

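Pair differences of 24 named genes and 4 loci without a symbol, and total counts of both sides, were searched for single values far from the others of their group of 7. Of 30 groups, 2 had one, and chance gives about 1 in 20. The log2 side difference of FoxA in the pair of sections 2 and 16 was 0.97, while the other 6 pairs lay between -1.62 and -0.64. The total count of section 14 was 250704, against 978206 to 1336245 in the other sections of its side; without sections 4 and 14, 417 loci were higher and 584 lower. The side difference changed with distance from the plane for 41 loci by the interaction test (14 with limma-trend, and 1435 at an unadjusted p under 0.05 with edgeR).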

How the results depend on the processing

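The counts of higher and lower loci around section 9, 548 and 809, were 311 higher by the DESeq2 Wald test, 321 and 344 with limma-trend, 265 and 270 with no replicate block (side without the pair factor), and 199 and 181 without the 2 innermost pairs. Lower loci numbered 403 with the plane at 8 and 348 at 8.5. Leaving out 1 pair at a time gave 262 to 649 higher and 419 to 1093 lower loci, fewest without sections 5 and 13 (higher) and 6 and 12 (lower) and most without sections 2 and 16. Around 8.5, 738 loci became 475 with the stricter filter (10 counts in at least 7 libraries), 335 with no replicate block, and 221 (without sections 4 and 13) to 1552 (without sections 1 and 16) when a pair was left out. The 41 loci that changed with distance became 14 with limma-trend and 16 with the stricter filter. With the plane at 10, which leaves 6 pairs, 198 loci were higher and 111 lower. All other alternatives run for these counts stayed within 1.5 times. No locus called around section 9 was called with the opposite sign in the alternatives compared locus by locus, which leave out the plane at 10 and the unsummed models.

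Signs turned only with the plane among the 24 named genes: at 8 for Pax2-5-8 (-0.31), FoxA (0.0689), Hox8 (0.0802), Hedgehog (0.60) and Sfrp1-5 (0.56), at 8.5 for Pax2-5-8 (-0.0303), and at 9.5 for Otx (-0.20), Dmbx (-0.15) and Wnt4 (-0.37). None of these turned values passed the test, and the cause was not tested. Depth limits genes under about 12.0 CPM in section 14. All results come from 1 arm, cut once, with the plane unmarked in the labels.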
